A study of Mus musculus with 18 samples.

Results

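The receptors of the ErbB family and the ligands that bind them were followed as 10 genes out of the 28442 in the deposited table, chosen by symbol: the receptors Egfr, Erbb2 and Erbb3 and the ligands Egf, Tgfa, Areg, Ereg, Btc, Hbegf and Nrg1. Their transcript levels were compared between 12 advanced tumors and 6 livers of Alb-R26Met mice, and from tumor to tumor. These mice, males of a mixed C57 and 129Sv background, carry a mouse-human chimeric Met transgene at the Rosa26 locus, switched on by a Cre recombinase that the albumin promoter drives in cells of the hepatocyte lineage. The livers came from mice of the same genotype that had not developed a tumor, so tumors and livers alike carry the transgene and no wild-type liver is part of the comparison. Ages ran from 52 to 71 weeks for the 6 livers (median 56.5) and from 49 to 72 weeks for the 12 tumors (median 65). The 12 tumors came from 11 mice, tumors 11 and 12 sharing 1 animal. Sample names also carry a tag, either E19 (7 tumors, 2 livers) or E20 (5 tumors, 4 livers), whose meaning is not stated.

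ErbB receptors are tyrosine kinases that pair up when a ligand binds and then feed the RAS-ERK and PI3K-AKT pathways. Egfr binds Egf, Tgfa, Areg, Ereg, Btc and Hbegf, Erbb3 and Erbb4 bind the neuregulins, and Erbb2 has no known ligand of its own and acts as a partner of the others. The ligands are made as membrane-anchored precursors that proteases of the ADAM family release, and in liver Egfr and its ligands are best known for their part in hepatocyte proliferation after injury.

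Bulk RNA-seq values were deposited as whole numbers, which the study calls raw counts, and were read here as rounded TPM, a length-corrected share of the transcripts of a sample, so a value of 0 stands for any level that rounds to 0. TPM totals per sample lay between 835144 and 884597 in livers and between 845356 and 907513 in tumors, and the read depth behind a single value is unknown. A single gene, Siglece, took up 17.9% to 29.5% of the total in livers and 21.5% to 82.9% in tumors. The deposited TPM of all other genes share what is left of each total. The 82.9% was that of tumor 2, against at most 53.4% in any other sample. To compare samples, TPM were divided by a scaling factor for each sample, and the results are called scaled TPM. In tumor 2, 1 TPM became 5.24 scaled TPM, while in the other 17 samples it became between 0.713 and 1.24, so small values of tumor 2 are coarse. The tags differed in the number of genes above 0. It was 11508 to 12394 in E19 samples and 12584 to 13819 in E20 samples other than tumor 2, which had 8718. The main fit does not take the tag into account. Met, the gene of the transgene, was at 122 ± 23.3 scaled TPM (SD, n = 12) among tumors and 26.0 ± 9.15 (SD, n = 6) among livers. This gave a log2 fold change of 2.23 (limma, Benjamini-Hochberg adjusted p = 4.58e-08). Both groups carry the transgene, so this difference is a result and cannot check the labels. Liver identity was checked on Alb, at 35730 ± 7307 scaled TPM (SD, n = 12) among tumors and 23596 ± 2839 (SD, n = 6) among livers, giving a log2 fold change of 0.58 that missed the threshold (adjusted p = 0.0848 by limma).

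Of the 10 genes, 5 passed the filter on low values and were tested by limma together with all other genes, namely Egfr, Erbb3, Tgfa, Btc and Nrg1. At an adjusted p under 0.05, Nrg1, Btc and Tgfa were higher in tumors and Egfr was lower, that is 4 of 5 tested, where 19.1% of all 11452 genes tested passed in either direction, 9.95% of them higher and 9.15% lower in tumors. The median log2 fold change of the 5 was 0.52, beside -0.06 over all genes tested. Nrg1 and Btc passed the filter through the tumors, where they were high, so these counts describe the genes and support nothing further. In bulk samples, fewer cells of a type and less RNA per cell cannot be told apart. The other 5 members, Erbb2, Areg, Ereg, Hbegf and Egf, never exceeded 4 TPM and were compared by exact permutation tests where they had a value above 0. The plot of members by sample shows all 10 genes.

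**Figure D1:**
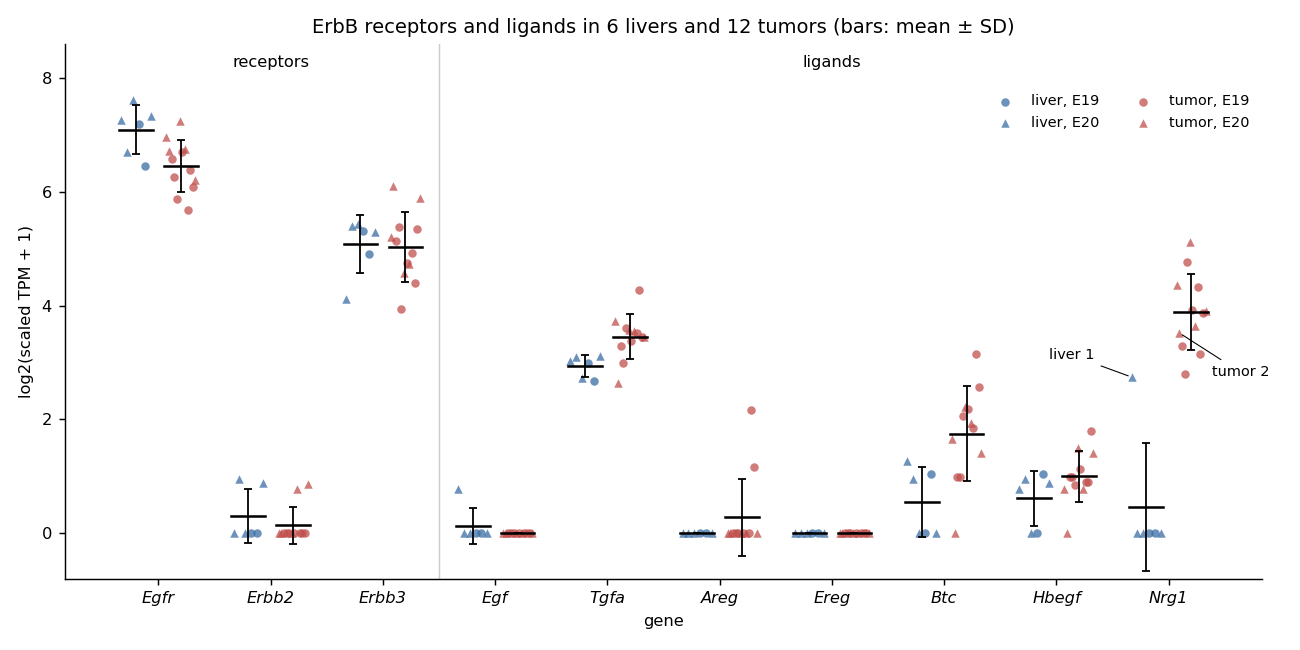
Scaled TPM of the 3 receptors and 7 ligands on a log2(scaled TPM + 1) axis, with 1 point per sample, 6 livers in blue and 12 tumors in red, circles for tag E19 and triangles for tag E20, and black bars for the mean ± SD. Nrg1 separates the groups, Egfr sits lower in tumors with overlap, and Erbb3 overlaps throughout. Erbb2, Egf and Ereg lie at or near 0, as does Areg in all samples but tumors 10 and 11.

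Egfr, the receptor of most of these ligands, was the most abundant member in every sample. Deposited levels were 20, 88 and 171 TPM in tumors (lowest, median and highest) and 81, 167.5 and 214 TPM in livers. After scaling, tumors lay between 50.4 and 150 scaled TPM with a mean of 90.8 ± 28.8 (SD, n = 12), and livers between 86.8 and 195 with a mean of 141 ± 39.6 (SD, n = 6). The groups overlapped: 6 of 12 tumors were below every liver, and no tumor was above all of them. The log2 fold change was -0.64 with a standard error of 0.22 (limma, adjusted p = 0.0484; exact permutation p = 0.0123 for this gene by itself, two-sided over 18564 splits). This call is at the edge of the threshold. The direction was kept in all 34 alternative settings, which include the exact permutation test with its unadjusted p. A p under 0.05 was reached in only 12 of them, that test among the 12. Leaving out liver 1, 3, 4 or 6, or tumor 3, 4, 5, 7, 9, 10, 11 or 12, ended the call each time, with adjusted p between 0.0533 and 0.138 in limma. With the tag as a covariate the log2 fold change was -0.51 (adjusted p = 0.0668 by limma), and within the tags it was -0.59 for E19 and -0.45 for E20 (adjusted p = 0.201 and 0.441 by limma). Median levels of Egfr in tumors and livers were 75.7 and 116 scaled TPM with E19, and 107 and 156 scaled TPM with E20.

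The Egfr gene lies on chromosome 11 of GRCm38.p6, from 16752203 to 16913907, and a noncoding gene annotated within it, Egfros, reached at most 13 TPM. Whether the library kept the strand is not stated, so reads shared by both genes cannot be told apart. The 250 bases before the annotated start of Egfr and of Btc are printed because these 2 genes passed the test in opposite directions and a RefSeq promoter was at hand for both. Capitals mark the GC box (GGGCGG on either strand), a sequence that Sp1 is known to bind. Egfr is at chr11:16751953-16752202 on the plus strand and Btc at chr5:91402995-91403244 on the minus strand, and each is written 5′ to 3′ in the direction of the gene.
Egfr: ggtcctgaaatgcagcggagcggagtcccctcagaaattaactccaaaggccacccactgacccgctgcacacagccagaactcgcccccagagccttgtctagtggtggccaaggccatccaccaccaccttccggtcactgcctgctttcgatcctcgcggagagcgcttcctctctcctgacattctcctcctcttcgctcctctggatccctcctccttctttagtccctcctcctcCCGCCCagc
Btc: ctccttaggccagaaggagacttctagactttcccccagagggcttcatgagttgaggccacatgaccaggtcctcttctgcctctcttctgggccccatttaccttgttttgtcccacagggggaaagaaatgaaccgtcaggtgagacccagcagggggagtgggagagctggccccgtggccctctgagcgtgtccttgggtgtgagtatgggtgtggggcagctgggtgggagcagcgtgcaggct
The Egfr window held 1 GC box and that of Btc held 0, while 32.7% of the 32851 RefSeq promoters of the same length held at least 1. Neither window contained TATAAA, found in 12.4% of promoters, or TGANTCA, found in 6.75%, on either strand. The GC content was 60.8% for Egfr and 59.6% for Btc, against a median of 52.4%. The promoter window for Tgfa, at chr6:86194972-86195221 on the plus strand, is not of the same kind. It runs past the annotated start of the gene at 86195038. It held 2 GC boxes with a GC content of 69.2%.

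Erbb3, a receptor of neuregulins with little kinase activity of its own, did not pass the test. Tumors lay at 13, 33 and 71 TPM as deposited (lowest, median and highest) and livers at 23, 41.5 and 45 TPM. The scaled means were 34.7 ± 15.7 (SD, n = 12) and 34.3 ± 10.01 (SD, n = 6), with a log2 fold change of -0.04 and a 95% confidence interval from -0.61 to 0.53 (adjusted p = 0.937 by limma). The interval leaves room for a change of either sign. Across tumors the spread was wider than between the group means, from 14.3 scaled TPM in tumor 5 to 68.2 in tumor 2, where the deposited value was 13 TPM, and 58.4 in tumor 12. The sign of the difference changed with the setting, to 0.03 with the tag as a covariate and 0.24 in E20 samples alone.

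Erbb2, the partner receptor, was near the lower end of what these values resolve, at 1 TPM in 2 tumors and 2 livers and at 0 in the remaining samples (exact permutation p = 0.299, two-sided). Mien1, a gene that overlaps the Erbb2 locus, reached 52 TPM in the same table. Erbb4, the remaining receptor of the family and no member here, was above 0 in 1 tumor, at 3 TPM, and in 3 livers, at 1 TPM each (exact permutation p = 0.245). Receptor transcripts were therefore those of Egfr and Erbb3 nearly alone. Egfr exceeded Erbb3 in 12 of 12 tumors and 6 of 6 livers, by a ratio of 1.25, 3.10 and 6.60 in tumors (lowest, median and highest) and 2.50, 3.97 and 9.30 in livers.

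Because a ratio of 2 genes within a sample does not depend on the scaling between samples, Egfr and Erbb3 were also set against Met. Egfr per Met was 0.504, 0.727 and 1.47 in tumors and 3.94, 5.66 and 7.64 in livers, so all 12 tumors were below every liver. Erbb3 per Met was 0.150, 0.283 and 0.520 in tumors and 0.821, 1.49 and 1.80 in livers, again without overlap. In TPM, Egfr was below Met in 11 of 12 tumors and in 0 of 6 livers. These ratios carry the higher Met of the tumors and by themselves do not show a change of either ErbB receptor.

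**Figure D2:**
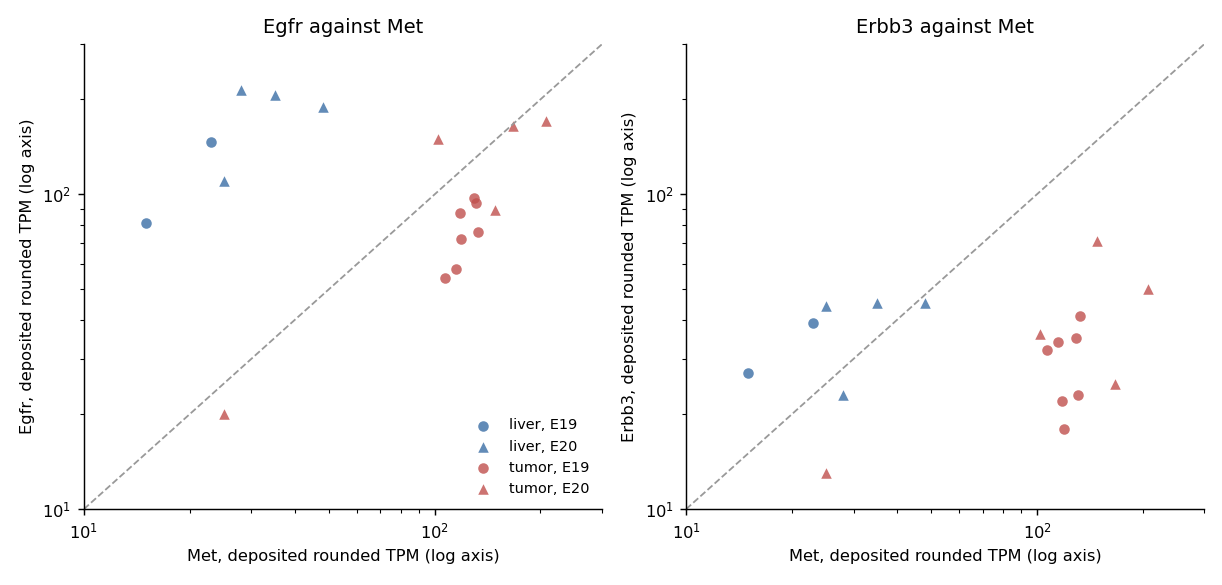
Deposited rounded TPM of Egfr (left) and Erbb3 (right) on the vertical axis against Met on the horizontal axis, both log axes, with 1 point per sample and a dashed line where the 2 genes are equal. All 6 livers lie above the line for Egfr while 11 of 12 tumors lie below it, and for Erbb3 all 12 tumors lie below the line.

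Nrg1, a neuregulin and ligand of Erbb3 and Erbb4, showed the largest difference among the members tested. It was listed at 2, 14 and 37 TPM in tumors (lowest, median and highest) and was above 0 in every tumor. Among livers it was listed at 8 TPM in liver 1 and at 0 in the other 5. Scaled levels averaged 15.4 ± 8.08 (SD, n = 12) across tumors and 0.951 ± 2.33 (SD, n = 6) across livers. All 12 tumors lay above every liver on this scale, but narrowly at the edge, with 5.98 scaled TPM in tumor 4 and 5.70 in liver 1, and on deposited TPM 10 of 12 did, since tumor 2 was at 2 and tumor 4 at 6. On the log2(scaled TPM + 1) scale the difference was 3.43 with a standard error of 0.38 and a 95% confidence interval from 2.64 to 4.22 (adjusted p = 1.65e-06 by limma). The exact permutation p of 5.4e-05 is the smallest that 18564 splits can give. Since 5 livers are at 0, this fold change depends on the pseudocount. A p under 0.05 was reached in all 34 alternative settings, with log2 fold changes between 2.67 and 4.23. These settings include the exact permutation test with its unadjusted p. Without liver 1 the log2 fold change was 3.87, and with both tumor 2 and liver 1 left out, a setting chosen after seeing the data, it was 4.04 (adjusted p = 1.7e-08 and 2.16e-08 by limma).

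Within the tags, Nrg1 was at 5.98 to 26.3 scaled TPM in the 7 E19 tumors, with both E19 livers at 0, and at 10.5 to 33.7 in the 5 E20 tumors, with E20 livers between 0 and 5.70. The log2 fold changes were 3.75 for E19 and 3.41 for E20 (adjusted p = 0.000758 and 0.00837 by limma). The interaction of group and tag did not pass for any of the 5 members tested, with limma adjusted p between 0.953 and 0.970. It passed for 0 of all 11452 genes tested, of which 334 had an unadjusted p under 0.05 by limma. The Nrg1 gene spans 1084 kb of chromosome 8 of GRCm38.p6, from 31807452 to 32891609. It is known for many isoforms that differ in their first exon, and the values per gene do not part them.

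Nrg4, a neuregulin that binds Erbb4 and lies outside the 10 members, was at 28.5 ± 18.6 scaled TPM (SD, n = 12) among tumors and 13.4 ± 10.7 (SD, n = 6) in livers. Its log2 fold change of 1.07 missed the threshold (adjusted p = 0.0931 by limma) and passed it in 5 of 33 alternative settings, among them the tag as a covariate (1.34, limma, adjusted p = 0.0153) and the fits without liver 1 (1.42, adjusted p = 0.0212) or tumor 10 (1.27, adjusted p = 0.0189). Liver 1, the only liver with Nrg1, also had the highest Nrg4 of the livers, 33.5 scaled TPM. The Nrg4 locus overlaps Fbxo22, which reached 25 TPM. Epgn, Nrg2 and Nrg3, the other ligands of the family, are listed at 0 in all 18 samples.

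Tgfa, a ligand of Egfr, was the most abundant of the 7 member ligands in the livers, where Nrg4 had a higher mean. It was listed at 1, 12 and 21 TPM in tumors (lowest, median and highest) and at 5, 7.5 and 10 TPM in livers. Scaled means were 10.3 ± 3.18 (SD, n = 12) and 6.71 ± 0.969 (SD, n = 6). Livers were closely grouped, and 10 of 12 tumors were above all of them while 1, tumor 2, was below all of them at a single TPM. The log2 fold change was 0.52 with a standard error of 0.18 (limma, adjusted p = 0.0447; exact permutation p = 0.00781 for this gene by itself, two-sided). Like Egfr, Tgfa was at the edge of the threshold. It had a p under 0.05 in 12 of 34 alternative settings, with the same direction in all 34. Both counts include the exact permutation test with its unadjusted p. The call was kept in the fits without liver 1, tumor 1, tumor 2 or tumor 4 and ended in the other 14 that left out 1 sample, with adjusted p between 0.0515 and 0.104 in limma. Without scaling, the log2 fold change was 0.38 (adjusted p = 0.597 by limma). Within the tags the log2 fold changes were 0.69 for E19 and 0.40 for E20 (adjusted p = 0.133 and 0.431 by limma).

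Btc, which binds Egfr and Erbb4, was listed at 0, 3 and 9 TPM in tumors and at 0, 0.5 and 2 TPM in livers (lowest, median and highest). It was above 0 in 11 of 12 tumors, all but tumor 2, and in 3 of 6 livers. Scaled means were 2.87 ± 2.09 (SD, n = 12) and 0.573 ± 0.648 (SD, n = 6), and 9 of 12 tumors exceeded every liver. The log2 fold change of 1.21 had a standard error of 0.36 (adjusted p = 0.0207 by limma). It was positive in all 31 alternative settings in which Btc was tested, with a p under 0.05 in 27. Both counts include the exact permutation test with its unadjusted p. The call ended without liver 3, 4 or 6, with adjusted p between 0.0601 and 0.0608, and in E19 samples alone (1.45, limma, adjusted p = 0.0985), and in E20 samples alone Btc did not pass the filter.

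Hbegf, another ligand of Egfr and Erbb4, was above 0 in 11 of 12 tumors, at 1 or 2 TPM, and in 4 of 6 livers, at 1 TPM. The difference on the log2(scaled TPM + 1) scale was 0.39 (exact permutation p = 0.118, two-sided). Without tumor 2, listed at 0, it was 0.48 (exact permutation p = 0.0316), so this library decided the call. Areg, an Egfr ligand induced in injured liver, was at 0 in all 6 livers and in 10 tumors, at 4 TPM in tumor 10 and at 1 TPM in tumor 11 (exact permutation p = 0.529). Egf was at 1 TPM in liver 1 and at 0 in the other 17 samples (exact permutation p = 0.333), and Ereg is listed at 0 in all 18. Areg, Ereg, Btc and Epgn are neighbors on chromosome 5, within 375 kb, and of these 4 Btc was the 1 found in most tumors.

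The sum of the 7 member ligands was 14.95, 30.4 and 50.1 scaled TPM in tumors (lowest, median and highest) and 5.66, 7.99 and 15.7 in livers. Nrg4 is no member and is left out of these sums and shares. Its mean of 28.5 scaled TPM in tumors and 13.4 in livers was above that of each member ligand, Nrg1 and Tgfa included. Liver 1 had the highest sum of the livers, and 11 of 12 tumors lay above it. The makeup differed as well. Nrg1 took up 20.5%, 50.8% and 67.3% of the ligand TPM of tumors, and 0% in 5 livers against 36.4% in liver 1. Tgfa took up 21.8%, 34.4% and 47.7% in tumors and 45.5%, 85% and 100% in livers. In 9 of 12 tumors Nrg1 exceeded Tgfa, which it did in 0 of 6 livers. Tumor 10 had the lowest share of Nrg1, the highest Tgfa and Btc, and most of the Areg.

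**Figure D3:**
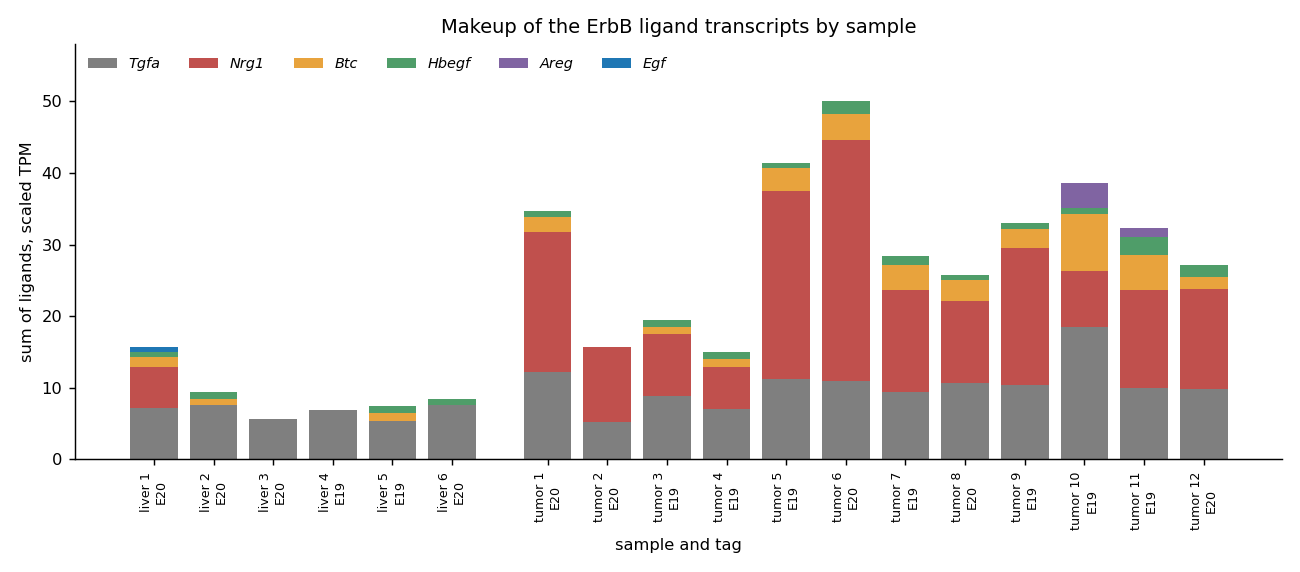
Sum of the member ligands in scaled TPM (vertical axis) in each of 6 livers and 12 tumors (horizontal axis, with the tag), stacked by ligand. Ereg is 0 throughout, and Nrg4, which is no member, is not included. Tgfa makes up most of the livers' bars, Nrg1 is the largest part in 9 of 12 tumors, and liver 1 is the only liver with Nrg1.

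From tumor to tumor, the 10 pairs among Egfr, Erbb3, Tgfa, Btc and Nrg1 were compared on the log2 scale over 12 tumors of 11 mice. Tgfa and Btc, 2 ligands that share Egfr, varied together with Pearson's r of 0.87 (permutation p = 0.00068, adjusted over 10 pairs 0.0068) and Spearman's rho of 0.66 (permutation p = 0.0228, adjusted 0.0759). Over the 7 E19 tumors r was 0.84, and no r is given for the 5 E20 tumors, a group of fewer than 6. The relation rests in part on tumors 2 and 10, the lowest and the highest in Tgfa. Without both, r was 0.57, and without tumor 2 alone it was 0.77 (permutation test, adjusted p = 0.0624), so it no longer passed. Erbb3 tended the other way, with r of -0.70 to Btc and -0.67 to Tgfa (permutation p = 0.0115 and 0.0185, adjusted 0.0573 and 0.0618; rho -0.68 and -0.71, permutation p = 0.0189 and 0.0124, adjusted 0.0759 for both), and neither passed the adjusted threshold. Values of r without tumors 5 and 2 were -0.62 and -0.55. Without scaling these 2 relations were 0.08 and 0.47, of the opposite sign. The remaining 7 pairs had adjusted permutation p of at least 0.509 for Pearson's r, but without scaling 3 of them passed. These were Egfr with Tgfa (r 0.81, adjusted permutation p = 0.0241), Tgfa with Nrg1 (0.76, adjusted permutation p = 0.0241) and Egfr with Nrg1 (0.70, adjusted permutation p = 0.0333). Without scaling, tumor 2 was the lowest tumor in each gene of these pairs, at 20 TPM for Egfr, 1 for Tgfa and 2 for Nrg1. It was also the lowest in Erbb3, at 13 TPM, and in Btc, at 0. The part of tumor 2 in the relations without scaling was not tested. With scaling, r of Tgfa with Nrg1 was 0.24 over all 12 tumors and 0.81 without tumors 2 and 10.

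The genes whose levels followed Egfr most closely over the 12 tumors, by Spearman's rho among all genes tested, were Phf11c (0.94), Plcb1 (0.92), Adrb3 (0.90), Klhl20 (0.89) and Slc43a1 (0.88). For Nrg1 they were Mbtps2 (0.89), Ttpal (0.89), Fam241b (0.88), Txnrd1 (0.86) and Nrg4 (0.85). These are the highest of 11452 values and are given as a description. Of these 10 genes none passed the test between tumors and livers, with limma adjusted p of 0.103 for Fam241b and 0.0931 for Nrg4 as the lowest.

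Among genes that release the ligands, 2 of 6 tested were higher in tumors and 0 lower, with a median log2 fold change of 0.33, where 9.95% of all genes tested were higher and 9.15% lower, with a median of -0.06. Adam10, a protease known to shed Egf and Btc, was at 10.4 ± 2.05 scaled TPM (SD, n = 12) among tumors and 4.62 ± 0.961 (SD, n = 6) among livers, giving a log2 fold change of 1.01 (adjusted p = 5.16e-05 by limma). Rhbdf1, one of the iRhom proteins that escort Adam17 to the cell surface, was at 10.015 ± 3.49 (SD, n = 12) and 2.50 ± 0.669 (SD, n = 6), a log2 fold change of 1.61 (adjusted p = 7.07e-06 by limma). All 12 tumors were above every liver in both genes. Adam17, which sheds Tgfa, Areg, Hbegf and Nrg1, differed by 0.26 on the log2 scale and missed the threshold (adjusted p = 0.183 by limma).

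Of 9 inhibitors and genes of receptor turnover tested, 1 was higher and 1 lower, with a median log2 fold change of 0.07. That is a share near the 19.1% of all genes that passed in either direction. Errfi1 (Mig6), which binds and blocks the Egfr kinase, fell from 450 ± 101 scaled TPM (SD, n = 6) in livers to 270 ± 77.5 (SD, n = 12) in tumors, a log2 fold change of -0.76 (adjusted p = 0.0145 by limma), with 10 of 12 tumors below every liver. Socs5 rose from 2.79 ± 1.06 (SD, n = 6) to 4.85 ± 1.36 (SD, n = 12), a log2 fold change of 0.64 (adjusted p = 0.0193 by limma). Of 14 adaptors and enzymes next to the receptors, 1 was higher and 1 lower, with a median of -0.25, which is no larger a share than among all genes. The adaptor Shc1 was higher in tumors by 0.63 (adjusted p = 0.0109 by limma), and Pik3r1, a regulatory subunit of PI3K, fell by 0.53 on the log2 scale (adjusted p = 0.0158 by limma).

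Of 12 genes tested that ERK activity is known to induce, 6 were higher and 1 lower in tumors, with a median log2 fold change of 0.90, beside 9.95% higher and 9.15% lower among all genes tested. Ier3, above 0 in 4 of 6 livers, and Fos, above 0 in 5, passed the filter only through the tumors. These counts therefore describe the genes and support nothing further. Ier3, an immediate early gene, was at 14.5 ± 9.52 scaled TPM (SD, n = 12) among tumors and 0.820 ± 0.791 (SD, n = 6) among livers, giving a log2 fold change of 2.87 (adjusted p = 0.000119 by limma). Ccnd1, which encodes cyclin D1, had a log2 fold change of 1.83 (adjusted p = 0.0105 by limma). It was at 32.9 ± 14.4 scaled TPM (SD, n = 12) among tumors and 17.3 ± 30.0 (SD, n = 6) among livers. The spread of Ccnd1 was wide among livers, and 0 of 12 tumors lay above every liver. Egr1 had a log2 fold change of 1.54 (adjusted p = 0.0494 by limma), and its livers overlapped tumors as well. Phlda1 was the 1 that fell, by 1.15 on the log2 scale (adjusted p = 0.00415 by limma), with 11 of 12 tumors below every liver. Met feeds the same pathway as the ErbB receptors, so these genes are not specific to either.

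**Figure D4:**
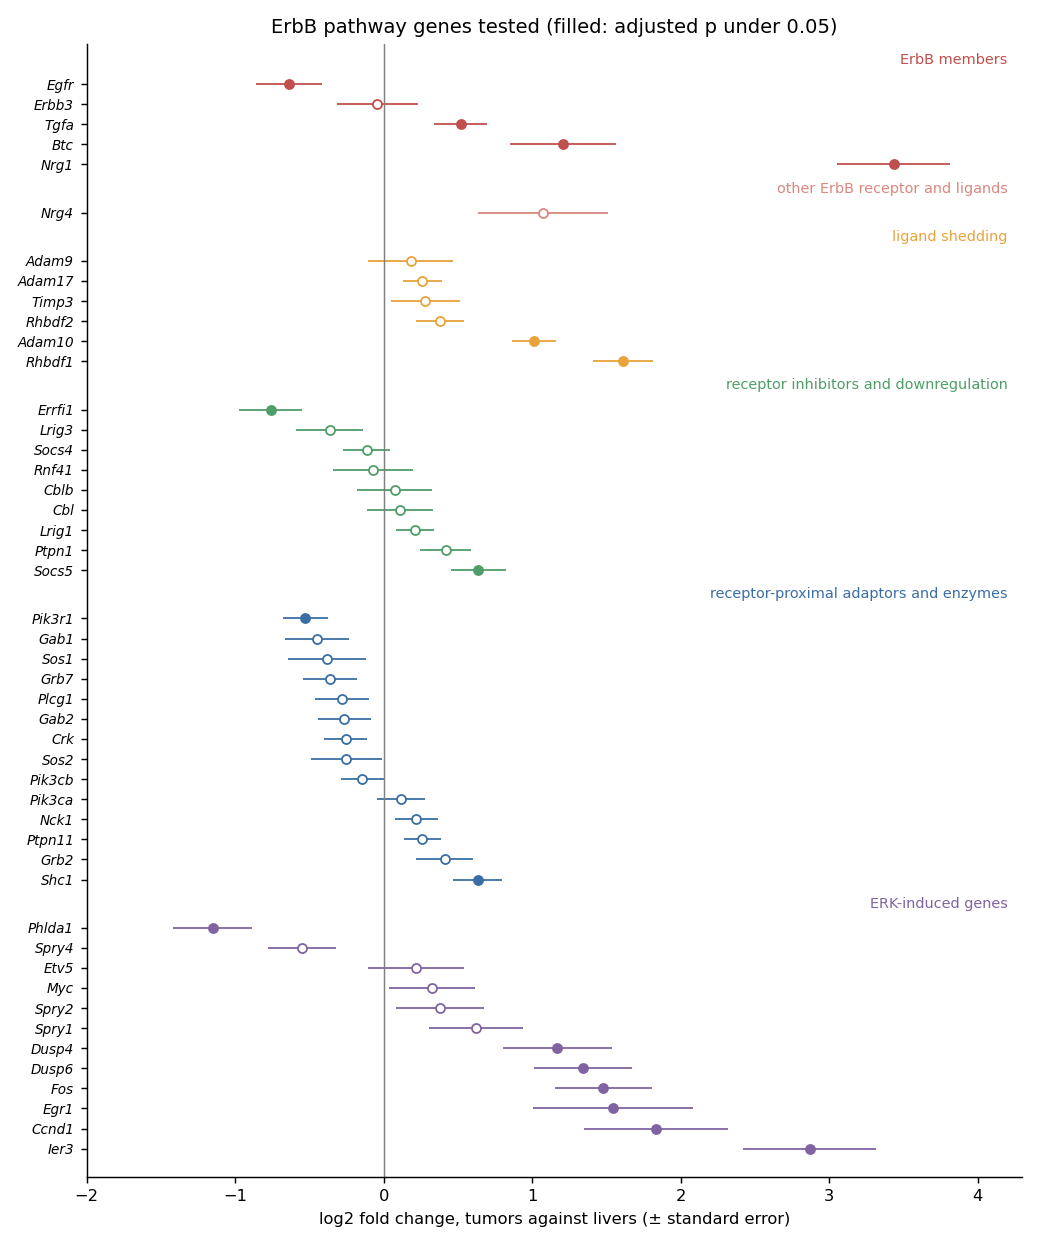
Log2 fold change of tumors against livers (horizontal axis) for each gene tested by limma in the member list and the 5 lists around it, with bars for the standard error and filled points for an adjusted p under 0.05. Nrg1 at 3.43 and Ier3 at 2.87 lie farthest to the right, Egfr, Errfi1, Pik3r1 and Phlda1 are the filled points below 0, and most adaptors are open points around 0.

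Some markers of other cell types also differed between the groups, and their counts are to be read against the 19.1% of all genes that passed. Of 7 cholangiocyte and progenitor markers 3 were tested and 2 were higher in tumors, Spp1 and Cldn7. Cldn7 was at 0 in all 6 livers and passed the filter only through the tumors, so this count supports nothing further. The summed level of the 7 was 61.3 to 904 scaled TPM in tumors against 9.44 to 19.3 in livers. Spp1 averaged 258 scaled TPM in tumors and 8.01 in livers. Sox9 averaged 9.47 in tumors and 6.31 in livers and missed the threshold (adjusted p = 0.303 by limma). The markers that were not tested were near 0. Krt19 was above 0 in 2 tumors and 2 livers and Krt7 in 1 of each. Epcam was above 0 in 6 tumors and 0 livers, and Muc1 in 0 tumors and 1 liver. Of 6 endothelial markers 3 were higher, led by Pecam1 with a log2 fold change of 1.15 (adjusted p = 0.000265 by limma). The sums ran from 23.7 to 205 scaled TPM in tumors (median 48.9) and from 14.3 to 46.5 in livers (median 36.3). Lyve1, which missed the threshold (adjusted p = 0.624 by limma), had the widest spread among tumors, at 19.6 ± 40.2 scaled TPM (SD, n = 12). Stellate cell and fibroblast markers were split, with 2 of 6 higher and 2 lower and sums of 41.0 to 142 against 54.2 to 84.0. Of 6 macrophage markers 0 were higher and 1 was lower, with sums of 18.7 to 101 against 45.2 to 119, and of 8 hepatocyte markers 1 was higher and 2 were lower. Sums of neutrophil, mast cell and lymphocyte markers stayed at or below 9.65 scaled TPM in every sample. The part of these cells in the levels of Nrg1, Btc, Tgfa and Egfr was not tested.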

How the data were processed

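Bulk RNA-seq of 12 tumors and 6 livers was used. Per the labels and the study's methods, the authors aligned paired-end reads of poly-A RNA to GRCm38 (mm10), ran Salmon for gene levels and expressed them as TPM; edgeR is also named in the submitters' processing notes, and its role is not given. The deposited whole numbers are treated as a score, namely rounded TPM, since no sample's total exceeds 907513, although the study calls them raw counts. TPM keep no read depth, so no counting error is given. All sample columns were used, and 8 lines with an extra separator were read accordingly. Groups and tags come from the sample labels and ages from the study's list of mice. For tumors 3 and 10 the mouse number differs between these sources, and their ages were matched by tumor number and tag.

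Each sample was scaled by a trimmed mean of M values (trims of 0.3 for M and 0.05 for A). Genes with at least 1 scaled TPM in at least 6 samples were fitted on log2(scaled TPM + 1) in R 4.3.3 by limma 3.58.1 with a prior variance trend, and p-values were adjusted by Benjamini-Hochberg over all 11452 genes tested at a threshold of 0.05. Fold changes therefore understate the change of low genes. The fit was tested on simulated data. Members below the filter were compared by two-sided exact permutation, and pairs by 100000 permutations, using Python 3.11.15 (scipy 1.17.1, pandas 2.3.3, numpy 2.4.6); figures used matplotlib 3.10.9. P-values take tumors 11 and 12 as separate samples; an alternative averages them.

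The members and gene lists were chosen with earlier results of these data known. Named genes are all members, the rest of the ErbB family, up to 3 genes that rose most and 3 that fell most in each list, and the 5 nearest patterns of Egfr and of Nrg1, the member ligand with the highest mean in tumors. Siglece and tumors or livers that stand apart were named after their values were seen. Alternatives covered scaling, pseudocount, filter, tag and age covariates, each tag alone, a replicate block, sample weights and each sample left out. For members tested by limma, the exact permutation test counted as a further setting, judged by its unadjusted p. Positions and promoters are those of RefSeq on GRCm38.p6, where 6 of 10 members matched a promoter.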

Additional observations from a re-analysis of the deposited data

Results flagged for a closer look

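Among 17 measures examined over the 6 livers, 5 had 1 liver far from the rest by Dixon's ratio, its distance from the next liver as a share of the range of all 6, where the critical value for 6 samples is 0.625 and 0.85 are expected by chance. In each of the 5 it was liver 1. The ratio was 1.0 for Nrg1, at 8 TPM in liver 1 and 0 in the others, and 1.0 for the share of Nrg1 among ligand TPM, at 36.4% against 0%. It was also 1.0 for Egf, at 1 TPM against 0, a single rounded unit. With all other livers at 0, the ratio is 1.0 at any level of liver 1. The number expected by chance therefore does not hold for Nrg1, its share and Egf. The scaled ligand sum reached 0.625, liver 1 standing at 15.7 scaled TPM and the next liver at 9.42. Egfr per Erbb3 reached 0.691, liver 1 standing at 9.30 and the next liver at 4.60. These 5 measures share genes and are not independent, and why liver 1 stands apart was not tested.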

How the results depend on the processing

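The values are rounded TPM of unknown depth, so levels of 1 or 2 TPM resolve little, above all in tumor 2. The 4 members called became 2 without scaling, without the filter on low values and with the 2 tumors of 1 mouse averaged, and 1 in E19 samples alone, in E20 samples alone and in livers and tumors 1 to 6 with or without a replicate block. Leaving out 1 sample gave between 1 and 4. Nrg1 was called in each of these settings. The 2187 genes called became 1341 without scaling, 1344 in E19 and 399 in E20 samples alone, 4527 with sample quality weights and, with both tumor 2 and liver 1 left out (chosen after seeing the data), 3667. Interaction with the tag, at 0 genes, gave 9 without the filter, 1 with both left out and 0 to 1 with 1 sample left out. The number shared by livers and tumors 1 to 6 is only a name, since livers and tumors came from different mice. Deviations of same-numbered samples correlated by -0.10 to 0.43, over 0.1 in 3 of 6 pairs. Their mean r was 0.177, against -0.0353 for pairs of unlike number. Of the livers 3 of 6, and of the tumors 2 of 6, correlated best with their own number. The block called 1361 genes and the same samples without it 1211. The log2 fold change of Erbb3, -0.04, turned to 0.033 with the tag as a covariate and 0.24 in E20 samples alone, and ran from -0.199 to 0.0564 with 1 sample left out. Without scaling, r turned to 0.81 for Egfr with Tgfa, 0.57 for Egfr with Btc, 0.47 for Erbb3 with Tgfa, 0.0793 for Erbb3 with Btc and 0.31 for Erbb3 with Nrg1. On that scale tumor 2 was the lowest tumor in each of these genes. Without tumor 2, r was -0.0272 for Egfr with Erbb3 and 0.10 for Egfr with Tgfa. Other causes were not tested.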
